A study of Mus musculus with 6 samples.

Results

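The 10 genes described here are textbook transcriptional targets of p53 in the mouse, and they were chosen by name: Cdkn1a, Btg2, Plk2, Mdm2, Ccng1, Bax, Bbc3, Gdf15, Trp53inp1 and Phlda3. Each symbol matched a single Ensembl gene among the 55416 genes of the count table. All 10 were among the 17083 genes with enough reads to be tested. They were followed in polyadenylated RNA of whole liver from 6 male mice, 3 per genotype, as read counts per gene. Every animal carried floxed Ephb2 alleles (Ephb2flox/flox), was given tamoxifen by intraperitoneal injection for 5 days at 8 to 10 weeks of age, and then ate a choline-deficient, amino-acid-defined high-fat diet for 8 weeks. That diet held 45% of its calories as fat, 0.1% methionine, 1% cholesterol and no added choline. WT denotes mice without Cre, and KO denotes mice with PdgfrbCreERT2, a tamoxifen-dependent recombinase active in stellate cells, pericytes and other cells that use the Pdgfrb promoter. Hepatocytes keep Ephb2 in this design, and no group carried Cre without the floxed gene, so Cre itself and the deletion cannot be told apart.

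The transcription factor p53 is stabilised when DNA is damaged or when a cell meets oncogenic, nucleolar or metabolic stress. It then binds paired half-sites in DNA and switches on genes that stop the cell cycle, kill the cell by the mitochondrial route or help it survive, along with genes that switch p53 itself off again. In fatty, inflamed liver, hepatocyte p53 and its target p21 are known to be engaged, and several of the targets also answer to other signals, such as glucocorticoids, fasting and the integrated stress response.

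Total counts ran from 21160690 to 26339251 per library. The targeted gene Ephb2 was at 9.46, 8.28 and 12.4 CPM across the WT livers and 6.01, 8.87 and 6.95 across the KO livers, so the genotypes overlapped (levels are CPM, counts scaled to a common library size and by TMM, throughout). Hepatocyte markers were abundant in every library, with Alb at 32565 CPM or more, while muscle markers summed to at most 0.720 CPM and adipocyte markers to at most 0.948 CPM. The labels number the samples within a genotype and say nothing more about how they relate, so the p-values speak of the spread among these 6 libraries, which may be partly technical. In whole tissue, fewer cells of a type and less RNA per cell cannot be told apart.

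RefSeq promoter windows of GRCm38.p6, each running from 250 bases before a transcription start to 50 after it, were found for 9 of the 10 genes and not for Trp53inp1. They comprised 13 windows, since Bbc3 has 3 starts and Cdkn1a and Gdf15 have more than 1. The p53 half-site consensus, a 10-base motif that reads the same on both strands, matched without mismatch in windows of 4 genes, Cdkn1a, Mdm2, Ccng1 and Bax. These were 4 of the 13 windows, against 8.36% of all 32851 windows. A pair of half-sites at most 13 bases apart with at most 2 mismatches in all was found at Cdkn1a and Bax. These were 2 of the 13 windows, against 2.12% of all windows. At Cdkn1a an exact pair spanned bases -73 to -42 from the upstream start, and an adjoining pair with 1 mismatch spanned -51 to -32. At Bax the pairs spanned -216 to -192 and -201 to -181, each with 2 mismatches. GC boxes (GGGCGG on either strand) were present at 7 of the 9 genes, in 9 of the 13 windows, against 35.7% of all windows. The stretches from base -230 to base -31 are printed for the 4 genes with a half-site, and for Btg2 and Bbc3, the members with the smallest p between the genotypes. Half-sites and pairs are in capitals. A match describes letters only, and many known p53 sites lie outside such windows, in introns or further upstream.
Cdkn1a (chr17:29090749-29090948, plus strand): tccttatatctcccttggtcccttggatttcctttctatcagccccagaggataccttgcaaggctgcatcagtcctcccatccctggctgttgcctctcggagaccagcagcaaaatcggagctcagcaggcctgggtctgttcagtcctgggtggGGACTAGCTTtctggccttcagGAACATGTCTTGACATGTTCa
Mdm2 (chr10:117710789-117710988, minus strand): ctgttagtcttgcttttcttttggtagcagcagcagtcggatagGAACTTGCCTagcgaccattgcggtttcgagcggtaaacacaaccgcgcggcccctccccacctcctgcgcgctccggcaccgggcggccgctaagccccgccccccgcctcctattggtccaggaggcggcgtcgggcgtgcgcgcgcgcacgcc
Ccng1 (chr11:40755317-40755516, minus strand): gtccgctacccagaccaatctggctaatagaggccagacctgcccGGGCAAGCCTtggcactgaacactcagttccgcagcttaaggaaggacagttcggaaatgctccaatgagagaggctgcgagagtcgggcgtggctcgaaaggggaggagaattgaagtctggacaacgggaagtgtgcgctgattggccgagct
Bax (chr7:45466929-45467128, minus strand): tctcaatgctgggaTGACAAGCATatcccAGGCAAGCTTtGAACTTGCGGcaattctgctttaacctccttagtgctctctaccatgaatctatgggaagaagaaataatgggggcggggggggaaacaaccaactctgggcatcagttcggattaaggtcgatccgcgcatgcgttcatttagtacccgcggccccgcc
Btg2 (chr1:134079186-134079385, minus strand): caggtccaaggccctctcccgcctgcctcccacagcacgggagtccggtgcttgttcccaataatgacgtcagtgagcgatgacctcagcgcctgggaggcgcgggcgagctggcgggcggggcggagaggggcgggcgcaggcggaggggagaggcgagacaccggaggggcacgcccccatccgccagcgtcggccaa
Bbc3 (chr7:16309353-16309552, plus strand): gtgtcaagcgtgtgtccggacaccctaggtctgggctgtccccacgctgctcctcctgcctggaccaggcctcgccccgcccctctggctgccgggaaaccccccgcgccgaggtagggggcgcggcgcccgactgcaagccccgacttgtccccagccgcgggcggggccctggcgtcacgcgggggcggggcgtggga

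Across the 10 genes, 8 lay lower and 2 higher in KO than in WT liver, and none passed the test over all genes. Their median log2 fold change was -0.23, against -0.0048 over all genes tested, of which 51% were negative. Bbc3, which encodes the killer protein PUMA, and Btg2, an antiproliferative gene, were the members at an unadjusted p under 0.05. By edgeR's quasi-likelihood test with Benjamini-Hochberg adjustment, 0 of the 10 were called at 0.05, as were 0% of the 17083 genes. The 2 of 10 at an unadjusted p under 0.05 were both lower in KO liver, against 5.19% of all genes in either direction and 2.1% in that direction. Libraries of the genotypes did not overlap for 3 of the 10 (Btg2, Mdm2 and Bbc3, all lower in KO), against 11.1% of all genes and 4.9% in that direction. These shares rest on few genes, chosen with earlier results of these data known. Without WT replicate 3 the median of the 10 was -0.073 and 1 member, Bbc3, stayed at an unadjusted p under 0.05, against 4.11% of all genes in that fit.

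**Figure D1:**
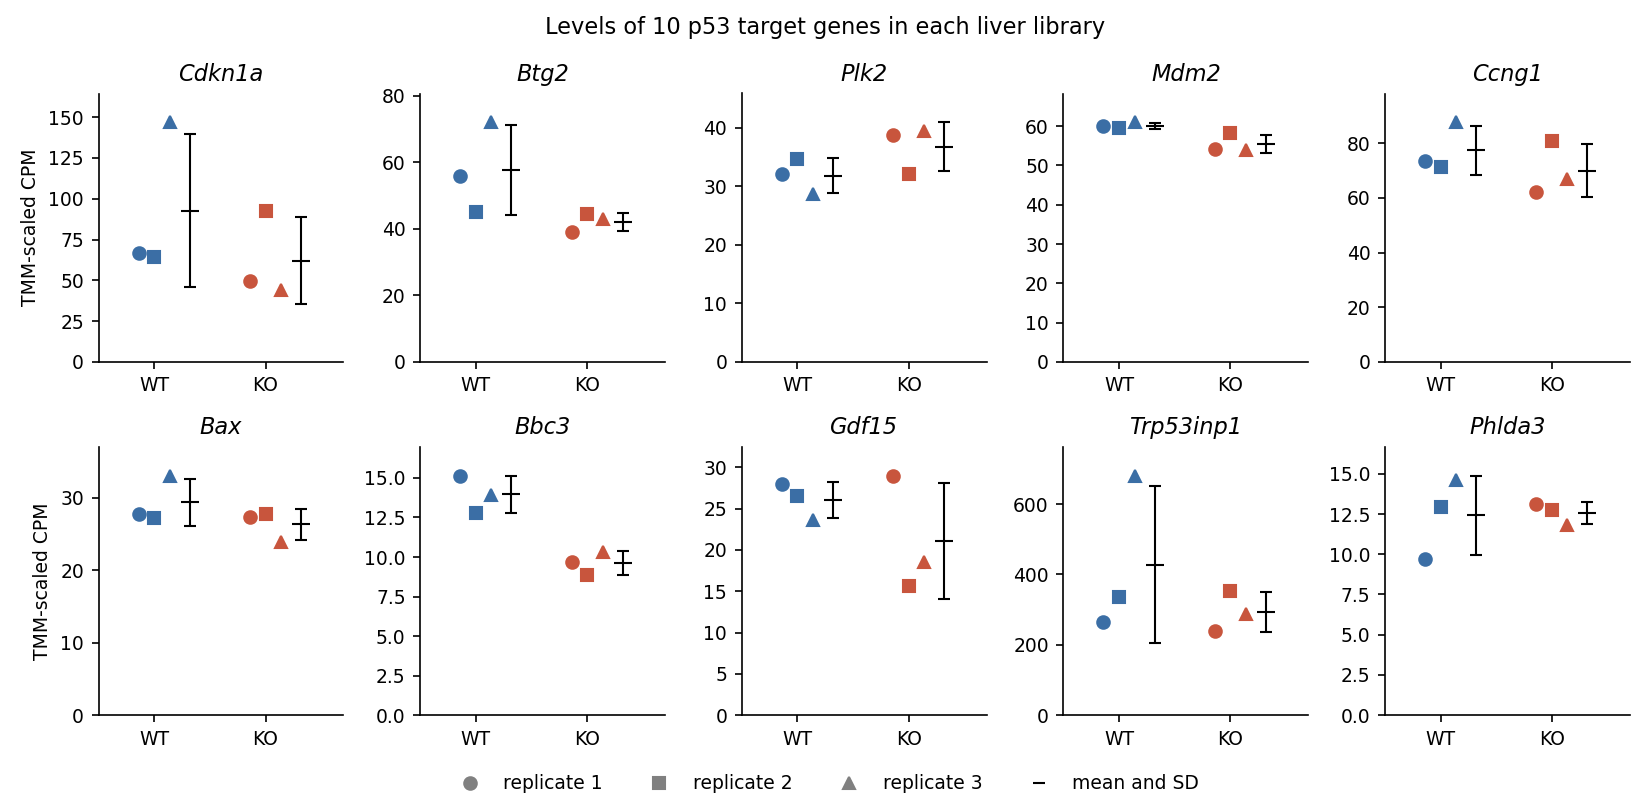
TMM-scaled CPM (vertical axes, linear, from 0) of the 10 p53 target genes in the 3 WT and 3 KO liver libraries, with the mean and SD beside each genotype. The 3 KO libraries of Bbc3 lie between 8.83 and 10.3 CPM, below the WT libraries at 12.8 to 15.2 CPM, whereas WT replicate 3 stands above all others in Cdkn1a and Trp53inp1.

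Of the genes that halt the cell cycle, Cdkn1a encodes p21, the inhibitor of cyclin-dependent kinases through which p53 arrests cells in G1. Its level was 67.1, 64.2 and 147 CPM across the WT livers and 49.5, 92.6 and 43.9 across the KO livers. WT replicate 3 stood highest and KO replicate 2 next, above the other WT libraries, so the genotypes overlapped. Means stood at 92.7 ± 46.9 CPM for WT and 62.0 ± 26.6 CPM for KO (SD, n = 3 each). The log2 fold change of -0.58 (SE 0.38, 95% interval -1.46 to 0.30) did not pass edgeR's test (adjusted p = 0.850). Leaving out WT replicate 3 gave -0.082 and leaving out KO replicate 2 gave -0.99, so single libraries set its size. Cdkn1a (ENSMUSG00000023067) lies on the plus strand of chromosome 17 of GRCm38, from 29090976 to 29100727, and 7.68% of its exonic bases are overlapped by an antisense transcript model, AC167363.2.

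Btg2 encodes a partner of the CCR4-NOT deadenylase that restrains proliferation, and it is also an immediate early gene. It was measured at 56.0, 45.0 and 72.1 CPM across the WT livers and 39.0, 44.4 and 42.9 across the KO livers. All 3 KO libraries lay below all WT libraries, but WT replicate 2 and KO replicate 2 were only 0.624 CPM apart. The WT libraries were also more widely spread, at 57.7 ± 13.6 CPM against 42.1 ± 2.77 CPM for KO (SD, n = 3 each). This gave a log2 fold change of -0.45 (SE 0.16, 95% interval -0.83 to -0.081), with an unadjusted p of 0.0230 and an adjusted p of 0.850 by edgeR. Leaving out WT replicate 3 moved it to -0.26 (edgeR, unadjusted p = 0.0604), and leaving out KO replicate 1 to -0.40 (edgeR, unadjusted p = 0.0765).

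Plk2, a polo-like kinase of the G1 phase and of the centriole cycle, went the other way. It read 32.1, 34.7 and 28.7 CPM across the WT livers and 38.9, 32.04 and 39.5 across the KO livers. KO replicates 1 and 3 were above every WT library, while KO replicate 2 lay within the WT range. Its log2 fold change was 0.21 (SE 0.12, 95% interval -0.058 to 0.47; edgeR adjusted p = 0.850). WT replicate 3, the highest library for the other arrest genes, was the lowest for Plk2.

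Among the feedback genes, Mdm2 encodes the ubiquitin ligase that marks p53 for destruction and is the main off switch of the response. Its level was nearly constant, at 60.0, 59.4 and 61.0 CPM across the WT livers and 54.2, 58.2 and 54.0 across the KO livers. The genotypes did not overlap, yet the whole range over 6 libraries was 1.13-fold, the narrowest of the 10 genes. The log2 fold change was -0.12 (SE 0.076, 95% interval -0.29 to 0.059; edgeR adjusted p = 0.850). Mdm2 has a constitutive promoter and a p53-driven promoter in its first intron, and counts per gene do not separate the transcripts of each.

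Ccng1 encodes cyclin G1, which brings the phosphatase PP2A to MDM2. It stood at 73.4, 71.3 and 87.7 CPM across the WT livers and 62.1, 80.7 and 66.9 across the KO livers. Again WT replicate 3 was highest and KO replicate 2 next, and the genotypes overlapped. The log2 fold change was -0.15 (SE 0.13, 95% interval -0.44 to 0.15; edgeR adjusted p = 0.858).

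The members that promote apoptosis act at the mitochondrion, where BAX forms pores in the outer membrane and PUMA, the product of Bbc3, neutralises the BCL-2 proteins that hold BAX in check. Bbc3 was measured at 15.2, 12.8 and 13.9 CPM across the WT livers and 9.67, 8.83 and 10.3 across the KO livers, from 222 to 306 reads per library. Every KO library was below every WT library, with a gap of 2.47 CPM against a range of 2.34 CPM within WT and 1.505 CPM within KO. Means stood at 14.0 ± 1.17 CPM for WT and 9.62 ± 0.754 CPM for KO (SD, n = 3 each), a level 0.689-fold that of WT. The log2 fold change of -0.54 (SE 0.12, 95% interval -0.82 to -0.25) had an unadjusted p of 0.00244 and ranked 33 of 17083 genes, but did not pass after adjustment (edgeR adjusted p = 0.850). It lay between -0.60 and -0.48 with any library left out, and its unadjusted p between 0.00283 and 0.0108 by edgeR. Bbc3 (ENSMUSG00000002083) lies on the plus strand of chromosome 7 of GRCm38, from 16308393 to 16318205, and no exon of another annotated gene overlaps its exons.

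Bax was at 27.8, 27.3 and 33.1 CPM across the WT livers and 27.4, 27.8 and 23.9 across the KO livers. WT replicate 3 was the highest and KO replicate 3 the lowest, and the other 4 libraries lay within 0.569 CPM of each other. Its log2 fold change was -0.16 (SE 0.11, 95% interval -0.41 to 0.099; edgeR adjusted p = 0.850), and -0.065 without WT replicate 3. The model Gm45808 on the same strand shares 12.2% of the exonic bases of Bax, and how reads in the shared bases were counted is not known. The interval of Bax included 0 and that of Bbc3 did not, and the difference between their fold changes was not tested.

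The members that answer stress more broadly were mixed. Gdf15, a secreted cytokine that lowers appetite and is a marker of mitochondrial and integrated stress, was at 27.9, 26.6 and 23.7 CPM across the WT livers and 29.0, 15.7 and 18.6 across the KO livers. KO replicate 1 was the highest of all and KO replicates 2 and 3 the lowest, so the KO libraries were split. Its log2 fold change was -0.31 (SE 0.21, 95% interval -0.80 to 0.18; edgeR adjusted p = 0.850), and leaving out KO replicate 2 gave -0.13 and leaving out KO replicate 1 gave -0.61 (edgeR, unadjusted p = 0.00295).

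Trp53inp1 encodes a nuclear and autophagosomal protein that augments p53 activity. It was the most abundant member, at 264, 336 and 681 CPM across the WT livers and 238, 352 and 286 across the KO livers. WT replicate 3 held the highest level by a wide margin, and the other 5 libraries overlapped. The log2 fold change of -0.55 (SE 0.33, 95% interval -1.32 to 0.22; edgeR adjusted p = 0.850) was -0.040 without WT replicate 3. Phlda3, an inhibitor of AKT at the membrane, was at 9.71, 12.9 and 14.6 CPM across the WT livers and 13.1, 12.8 and 11.8 across the KO livers. The KO libraries lay within the WT range (log2 fold change 0.018, SE 0.16, 95% interval -0.35 to 0.39; edgeR adjusted p = 0.983), and the sign turned without WT replicate 1 (-0.14) or KO replicate 1 (-0.016).

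**Figure D2:**
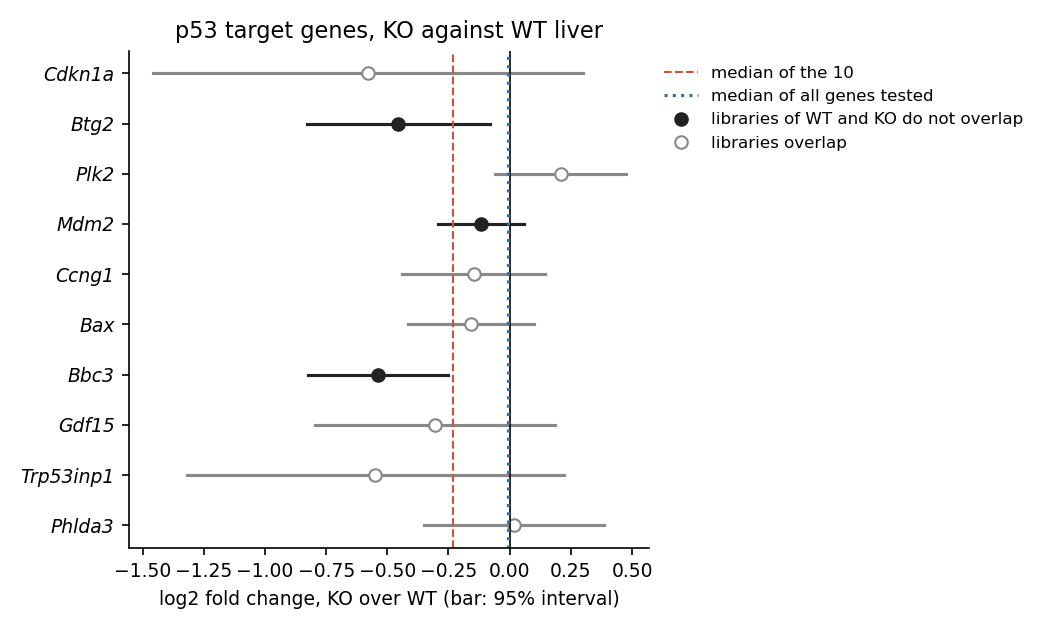
Log2 fold changes of the 10 genes, KO over WT (horizontal axis), with 95% intervals from edgeR's fit over all genes and the medians of the 10 and of all genes tested. The intervals of Bbc3 (-0.82 to -0.25) and Btg2 (-0.83 to -0.081) lie below 0, and those of the other 8 genes include 0.

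Per kilobase of merged exons, Trp53inp1 had the highest level of the 10, at 55.6 ± 25.2 CPM per kilobase (SD, n = 6 libraries). A middle group held Cdkn1a (21.8 ± 10.7), Ccng1 (20.98 ± 2.65), Btg2 (18.2 ± 4.47) and Bax (17.7 ± 1.88 CPM per kilobase), whose levels did not differ beyond their spread. Gdf15 (12.7 ± 2.90) and Mdm2 (11.4 ± 0.592 CPM per kilobase) followed, also within their spread. Phlda3 (8.01 ± 1.05), Plk2 (7.64 ± 0.942) and Bbc3 (5.55 ± 1.19 CPM per kilobase) were lowest. Merged exons count every annotated exon, so genes with long rare transcripts appear lower on this scale.

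The spread within a genotype followed single libraries. WT replicate 3 was the highest of the 6 libraries for 7 of the 10 genes, against 24% of all genes tested. On the log2 scale its mean deviation from the gene means was 0.35, and those of the other libraries ran from -0.19 in KO replicate 3 to 0.016 in WT replicate 2. Cdkn1a and Trp53inp1 deviated most, by 1.05 and 1.02 in WT replicate 3. The 3 libraries with the most acute phase RNA, secreted by hepatocytes under inflammatory cytokines, were WT replicates 1 and 3 and KO replicate 2. There, 15 of 15 acute phase genes held their highest levels, with Hpx the most abundant. The list summed to 34329, 17074 and 42056 CPM across the WT livers and 20159, 44777 and 17845 across the KO livers. The same 3 libraries ranked highest for Cdkn1a, Ccng1 and Bax, 3 of the 10 genes, and for 10.6% of all genes tested. Neutrophil markers, of which 6 of 7 were tested and Ly6g was at 0 in 1 library, summed to 29.4 to 118 CPM in WT and 32.9 to 83.4 CPM in KO, with the highest sum in WT replicate 3. With the acute phase sum as a covariate, Cdkn1a stood at -0.44 (SE 0.20), Btg2 at -0.38 (SE 0.13) and Bbc3 at -0.54 (SE 0.13), and none passed edgeR's test (adjusted p = 0.773, 0.741 and 0.729). The part of inflammation in these levels was otherwise not tested.

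**Figure D3:**
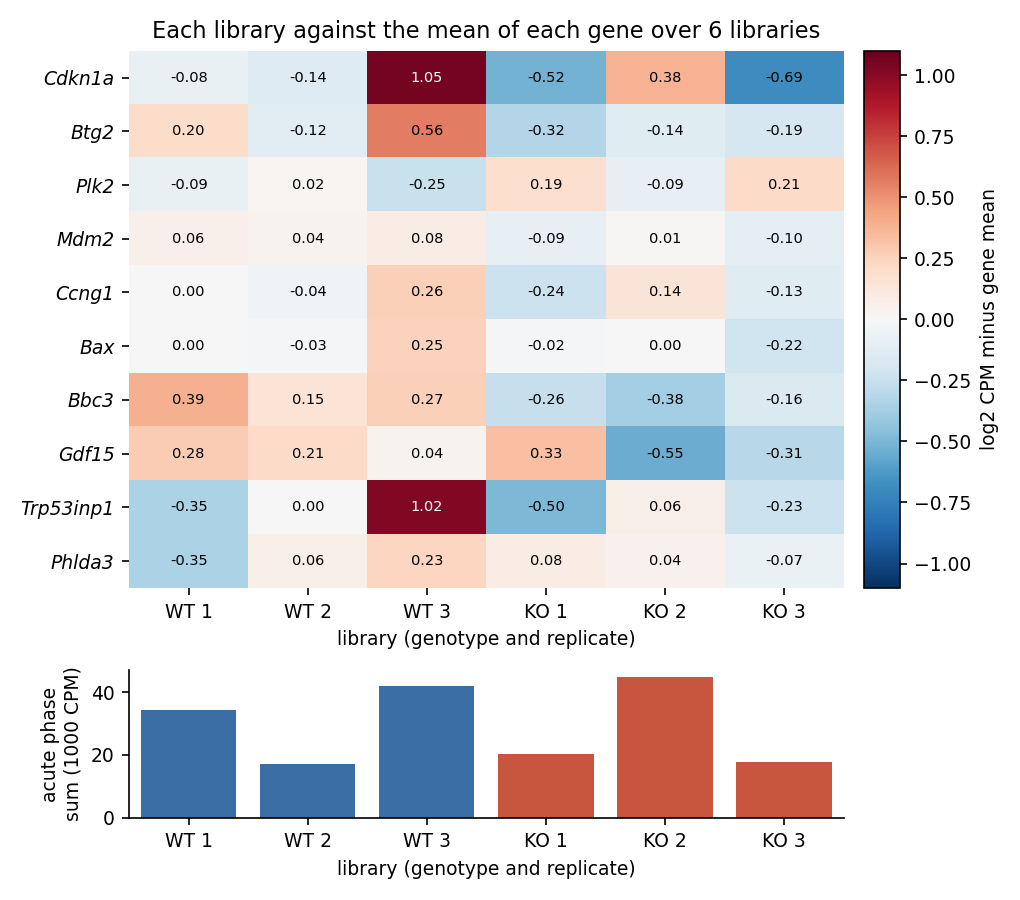
Upper panel, log2 CPM of each gene in each library minus its mean over the 6 libraries; lower panel, summed CPM of 15 acute phase genes per library (bars from 0). WT replicate 3 is above the mean in 9 of the 10 rows, and Bbc3 alone is above its mean in all WT and below it in all KO libraries.

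The fold changes of Cdkn1a and Trp53inp1 depended more on single libraries than that of Bbc3. Over the 6 fits that each left out a library, Mdm2 ran from -0.15 to -0.099 and Plk2 from 0.14 without WT replicate 3 to 0.30 without KO replicate 2 (edgeR, unadjusted p = 0.0312 in the last). Cdkn1a ran from -0.99 to -0.082 and Trp53inp1 from -0.81 to -0.040 in the same fits. Without KO replicate 2, 4 of the 10 genes were at an unadjusted p under 0.05, 3 lower and 1 higher, against 5.18% of all genes in either direction.

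**Figure D4:**
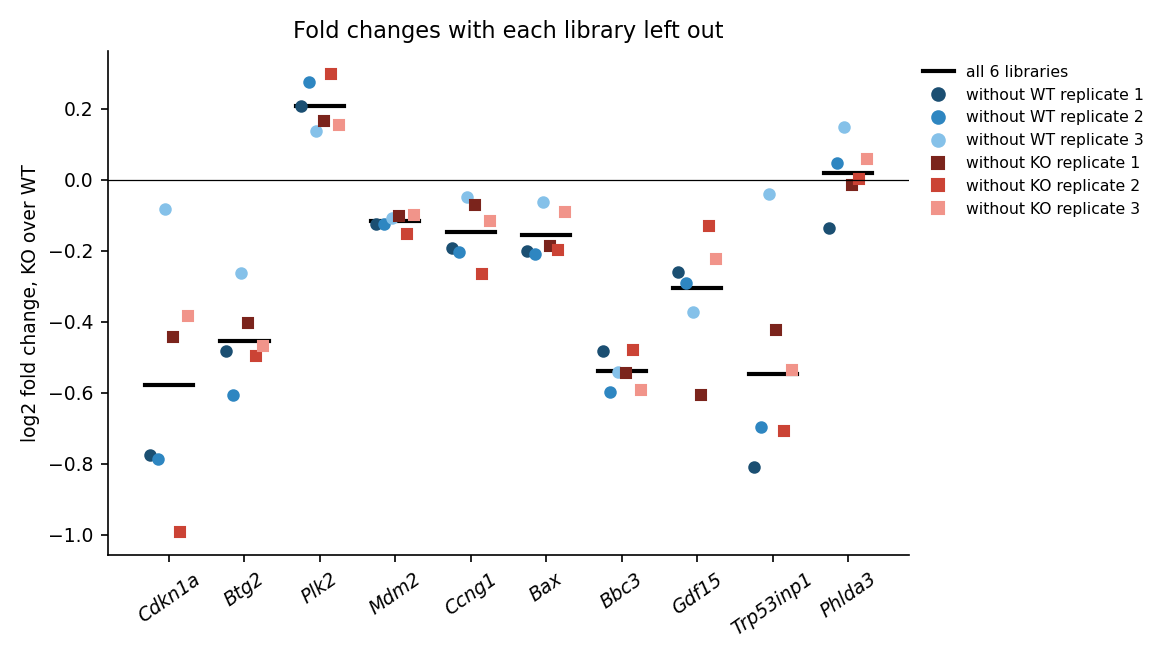
Log2 fold changes, KO over WT (vertical axis), of the 10 genes with all 6 libraries (bars) and with each library left out (points). Points of Cdkn1a reach from -0.99 to -0.082 and those of Trp53inp1 from -0.81 to -0.040, while those of Bbc3 stay between -0.60 and -0.48.

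Among markers of other cells in liver, every tested cholangiocyte gene was higher and every tested endothelial and neutrophil gene lower in KO liver, though none passed edgeR's test. Like the other lists, these were chosen with earlier results of these data known. Cholangiocyte markers, led in level by Spp1, were higher in KO liver for 7 of 7 genes, with a median log2 fold change of 0.38. They summed to 876, 1185 and 1111 CPM over the WT libraries and 1211, 1559 and 1479 over the KO libraries, so the sums did not overlap. Spp1 alone, at 613 to 1166 CPM over the libraries, made up most of each sum. Of the 7, 4 were at an unadjusted p under 0.05, against 5.19% of all genes. That number ran from 0 without WT replicate 1, where 3.8% of all genes were at that p, to 6 without WT replicate 2, where 10.7% were. Endothelial markers, led by Stab1, were lower for 8 of 8 genes (median -0.24). These markers had 1 gene at an unadjusted p under 0.05, against 2.1% of all genes in that direction. They summed to 710, 687 and 1041 CPM over the WT libraries and 745, 752 and 608 over the KO libraries, and without WT replicate 3 the median was -0.055 with 6 of 8 lower. No cholangiocyte or endothelial marker was at 0 in any library. The 6 tested neutrophil markers had a median of -0.64, which became 0.32 without WT replicate 3. Other marker lists were mixed in sign. Stellate cell markers were lower for 6 of 11 genes (median -0.015) and Kupffer cell and macrophage markers for 8 of 12 (median -0.23). With all libraries, each of these lists had 2 genes at an unadjusted p under 0.05, both lower, against 2.1% of all genes in that direction. Without WT replicate 3, Kupffer cell and macrophage markers were lower for 6 of 12 genes (median 0.009), with 0 at that p. Without WT replicate 2, 6 of the 11 stellate cell markers were at that p, of which 2 were lower, against 10.7% of all genes in either direction. T, NK and B cell markers were higher for 9 of 11 genes (median 0.14), with 0 at an unadjusted p under 0.05. Hepatocyte markers were lower for 9 of 11 tested genes (median -0.061), also with 0 at that p. Without WT replicate 3, 11 of 11 were lower (median -0.15), and without KO replicate 2, 4 of 11 were lower (median 0.050). The part of these cell types in the differences of the p53 targets and of the gene lists was not tested.

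The gene for p53 itself did not differ beyond the spread between replicates. Trp53 was at 38.9, 43.1 and 44.0 CPM across the WT livers and 47.1, 42.4 and 39.9 across the KO livers, a log2 fold change of 0.038 (SE 0.095, 95% interval -0.18 to 0.26; edgeR adjusted p = 0.940). The libraries of the genotypes were interleaved. p53 is controlled mainly through the stability of its protein, which these data do not measure. Mdm4, which binds p53 and masks its activation domain, differed by 0.15 on the log2 scale (SE 0.13). Of 19 genes for p53 and its regulators, 16 were tested, 8 lay higher and 8 lower, with a median of 0.00028, and 0 passed. Cdkn2a, whose product ARF blocks MDM2, and the p53 relatives Trp63 and Trp73 had too few reads to test. Besides Trp53 and Mdm4, the smallest p in this list were those of Trp53bp1 (0.20, SE 0.090), a scaffold at DNA breaks, and Crebbp (-0.12, SE 0.087), an acetyltransferase that acts on p53. They were the 2 of 16 genes without overlap between the genotypes (12.5%), a share near the 11.1% of all genes. Tubgcp4 on the other strand overlaps 15% of the exonic bases of Trp53bp1, and the strand setting of the counting is not given in the sources used here.

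A further list held other p53 targets. Of 30 such genes, all tested, 19 were lower and 11 higher, with a median log2 fold change of -0.087. None passed edgeR's test, and 2 of the 30 (6.67%) were at an unadjusted p under 0.05, both lower, a share near the 5.19% of all genes in either direction (2.1% lower). They were Gtse1 (-0.58, SE 0.16), a microtubule-binding protein of dividing cells that also restrains p53, and Slc19a2 (-0.31, SE 0.11), a thiamine transporter. The next smallest p belonged to Rps27l (-0.21, SE 0.090), a ribosomal protein paralog, Eda2r (-0.42, SE 0.19), a receptor of the TNF receptor family, Ei24 (-0.27, SE 0.13), a membrane protein of the endoplasmic reticulum, and Zmat3 (-0.29, SE 0.16), an RNA-binding protein. Eda2r was at 10.1, 10.0 and 15.4 CPM across the WT livers and 8.28, 8.83 and 9.31 across the KO livers. Its genotypes did not overlap, and WT replicate 3 was again the highest. Of the 30 genes, 5 did not overlap (16.7%), against 11.1% of all genes.

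Bax and Bbc3 have partners in the BCL-2 family. Of 13 genes, 12 were tested, 9 lower and 3 higher, with a median of -0.074, and 0 at an unadjusted p under 0.05. Bcl2l1, the gene of the survival protein BCL-XL, had the smallest p of the list, at 69.9, 68.4 and 124 CPM across the WT livers and 64.7, 71.6 and 73.4 across the KO livers (log2 fold change -0.32, SE 0.22). WT replicate 3 stood apart there as well. Bad, a death-promoting member, was next (-0.18, SE 0.13), and Gpr137 on the other strand overlaps 20.5% of its exonic bases.

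Relatives of p21, the G1 cyclins and their kinases act at the step that p21 blocks. Of 14 such genes, 10 were higher and 4 lower, with a median of 0.011 and 0 at an unadjusted p under 0.05. The smallest p were those of Ccnd3 (-0.19, SE 0.11), cyclin D3, and Cdkn1c (0.36, SE 0.26), the gene of the inhibitor p57. The antisense model Gm44732 overlaps 30.7% of the exonic bases of Cdkn1c.

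Mitotic genes, which p53 represses through p21 and the DREAM complex, lay lower in KO liver. All 12 were negative (median log2 fold change -0.35), and 6 were at an unadjusted p under 0.05, against 2.1% of all genes in that direction. None passed edgeR's test over all genes. The list was chosen with earlier results of these data known, so its shares are not independent of them. Ccnb1, cyclin B1, was at 16.1, 18.1 and 14.3 CPM across the WT livers and 10.7, 11.4 and 10.7 across the KO livers. The genotypes did not overlap for Ccnb1 (-0.57, SE 0.12; edgeR adjusted p = 0.850), nor for Ccna2, cyclin A2 (-0.35, SE 0.13), of whose exonic bases 12.5% are overlapped by Exosc9 on the other strand. They were among 4 of the 12 without overlap, all lower, against 4.9% of all genes in that direction. All 12 stayed negative with any library left out. The 6 at an unadjusted p under 0.05 became 1 without WT replicate 2 or KO replicate 2, where 4.46% and 2.22% of all genes were lower at that p. They became 2 without KO replicate 3 (1.22% of all genes), and 3 without WT replicate 1 (1.79%) or KO replicate 1 (2.31%). They numbered 6 without WT replicate 3 (1.83% of all genes), the library highest in Cdkn1a. Cholangiocyte markers (7 of 7 higher) and endothelial markers (8 of 8 lower) stood beside this difference, and their part in it was not tested.

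**Figure D5:**
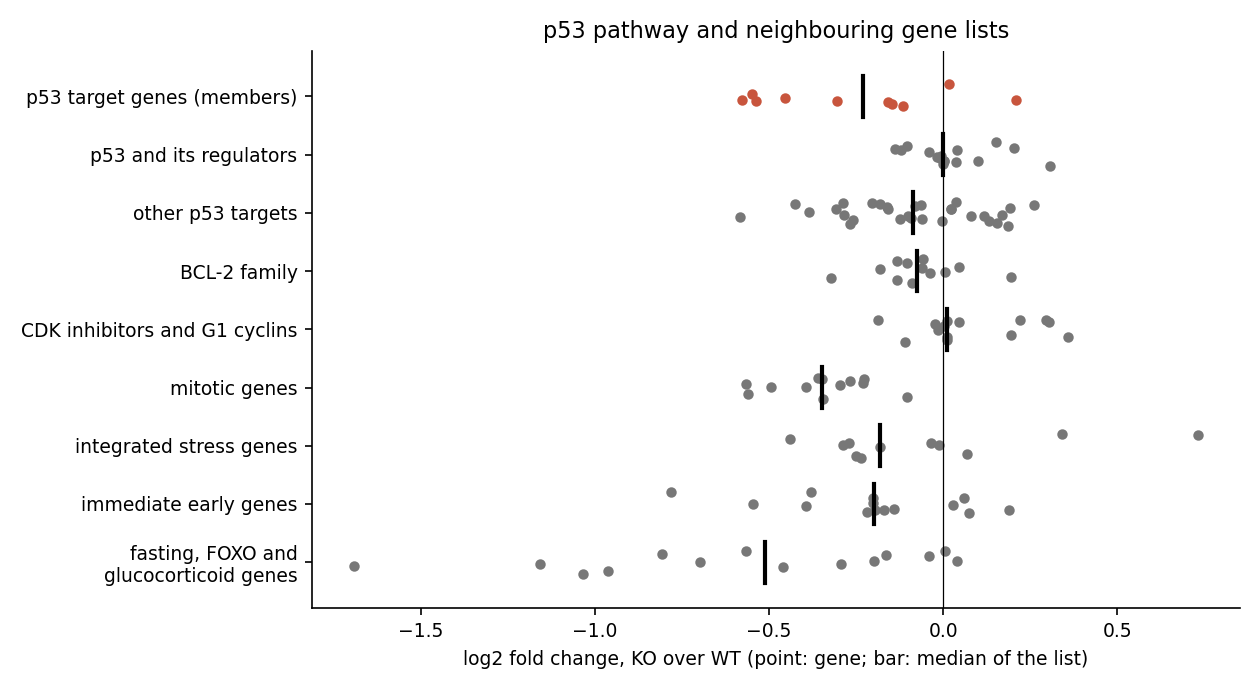
Log2 fold changes, KO over WT (horizontal axis), of the tested genes of each list (points, spread vertically at random) with the list's median (bars). Medians are -0.23 for the 10 p53 target genes, 0.00028 for p53 and its regulators, -0.087 for other p53 targets and -0.35 for mitotic genes.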

How the data were processed

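Raw read counts for each Ensembl gene were deposited by the authors as a single table of 6 libraries. Per the submitters' processing notes, which give no roles, the tools were STAR 2.7.6a, featureCounts 1.6.3 and DESeq2 1.30.0, with GRCm38 or mm10 as build. The labels' protocols give polyadenylated RNA, a directional kit and an Illumina NovaSeq. Annotation release and strand setting: not given in the sources used here. Symbols, exon lengths and coordinates came from GENCODE M21 (GRCm38), which matched 52135 of 55416 IDs.

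The test was edgeR 4.0.16 (glmQLFit, glmQLFTest) under R 4.3.3. It used TMM scaling, the filter filterByExpr (minimum count 10, minimum total 15) and a model with genotype alone, with p-values adjusted by Benjamini-Hochberg over 17083 genes at 0.05. Logged levels used a prior count of 2. The procedure was tested on simulated counts. Alternatives were other scalings, filters, DESeq2 1.42.0, limma-voom (limma 3.58.1), robust fitting, a replicate block, each library left out and, added after seeing the data, an acute phase covariate.

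The members and lists were chosen with earlier results of these data known. All 10 members were named. From the other lists the rule named Trp53, Mdm4 and the genes with the smallest p: 2 regulators, 6 other targets and 2 of each further list. Ephb2, AC167363.2, Gm45808, Tubgcp4, Gpr137, Gm44732, Exosc9, Fkbp5, Per1, Tsc22d3, Sgk1, Klf15 and genes at low counts were named outside it.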

Additional observations from a re-analysis of the deposited data

How the results depend on the processing

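None of the 10 genes passed the threshold under any of the 16 alternatives, and 9 kept their direction in all of them. Phlda3 ran from -0.14 (without WT replicate 1) to 0.15 over the libraries left out, and turned to -0.016 without KO replicate 1. The median log2 fold change of the 10 genes ran from -0.30 to -0.073 over the libraries left out. The last value came without WT replicate 3. Its shift from the median with all libraries was larger than the SD between replicates of the members' median level (0.12 on the log2 scale). Scaling by library size alone moved the median of all genes to 0.075 and that of the 10 to -0.15. Over all genes, edgeR called 0, and the count was 3 without a filter on low counts, 7 with DESeq2 and from 0 to 2 with a library left out, the 2 without WT replicate 3. The cause of these differences was not tested. With the replicate number as a block, 0 genes were called, 537 were at an unadjusted p under 0.05 against 886 without it, and the median of the 10 was -0.25. The labels do not say that the numbers pair the animals, so they were not taken to do so. Deviations of same-numbered libraries correlated at -0.026, -0.44 and -0.31. With 3 libraries per genotype, these correlations cannot settle whether animals were paired. A median SE of 0.16 on the log2 scale limits what 3 libraries per genotype can show.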

Other observations

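Several of the 10 genes are also known targets of other signals, and 3 lists of such signals were read from the same comparison. All 3 were chosen with earlier results of these data known. No gene of the 3 lists passed edgeR's test over all genes. Integrated stress genes, the programme of ATF4 that also induces Gdf15, had 8 of 11 members lower and 3 higher in KO liver, with a median log2 fold change of -0.18 and 0 at an unadjusted p under 0.05. Leaving out WT replicate 2 gave a median of 0.080, and leaving out KO replicate 2 gave 0.029. Ddit3, the gene of the stress factor CHOP, was at 0.34 (SE 0.17) and Ppp1r15a, whose product helps restart translation, at -0.27 (SE 0.15). Among immediate early genes, the class that includes Btg2, 10 of 14 were lower, with a median of -0.20 and 2 at an unadjusted p under 0.05, both lower, against 2.1% of all genes in that direction. Without WT replicate 2 they numbered 7, of which 6 were lower, against 10.7% of all genes in either direction. With all libraries the 2 were the phosphatase gene Dusp1 (-0.78, SE 0.21) and the mRNA decay factor Zfp36 (-0.38, SE 0.14). Dusp1 was at 33.8, 27.9 and 50.9 CPM across the WT livers and 20.5, 24.2 and 20.8 across the KO livers, without overlap and highest in WT replicate 3, as Btg2 was. Of the 14 genes, 2 did not overlap (14.3%), against 11.1% of all genes.

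Genes induced by fasting, FOXO factors and glucocorticoids lay lower in KO liver in 12 of 14 cases, with a median of -0.51, and 6 were at an unadjusted p under 0.05, all lower, against 2.1% of all genes in that direction. That number was lowest, 4, without WT replicate 3, where the median was -0.29 and 1.83% of all genes were lower at that p. It was highest, 8, without WT replicate 2, where 4.46% of all genes were lower at that p. Klf10 (-0.81, SE 0.12) and Angptl4 (-1.16, SE 0.20) had the smallest p, and the libraries of the genotypes did not overlap for either. Of the 14 genes, 5 did not overlap, all lower, against 4.9% of all genes in that direction. The list was chosen with earlier results of these data known, so these shares are not independent of them. Fkbp5, a glucocorticoid target named here after its values were seen, was at 45.9, 39.2 and 133 CPM across the WT livers and 32.7, 46.6 and 26.8 across the KO livers. Its highest library was WT replicate 3, the one that also held the most Cdkn1a and Trp53inp1. The list was not uniform in this, as other genes named after their values were seen show. Per1 (78.4 CPM) and Tsc22d3 (93.0 CPM) were also highest there, though KO replicate 2 held 91.9 CPM of Tsc22d3. Sgk1 was highest in WT replicate 2 (124 CPM) and Klf15 in WT replicate 1 (126 CPM), above WT replicate 3 (100 and 121 CPM). The part of glucocorticoids in these levels was not tested.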
